A study of Mus musculus with 13 samples.

Results

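The Hox cluster genes are the homeobox genes that lie side by side in 4 clusters, HoxA on chromosome 6, HoxB on chromosome 11, HoxC on chromosome 15 and HoxD on chromosome 2 of mm10. The members were chosen by name through the mm10 annotation of their Entrez identifiers, and 38 of the 23366 genes in the table are described here. They fall into 10 HoxA, 10 HoxB, 9 HoxC and 9 HoxD genes.

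The data are log2 RPKM values (read number scaled by gene length and by sequencing total) from RNA sequencing of the pancreas of 13 female mice. All mice were reprogrammable, carrying a transgene for OCT4, SOX2, KLF4 and MYC (OSKM) that doxycycline switches on throughout the body. The young group (4 mice of 13 weeks) and the old group (5 mice of 55 weeks) carried the transgene but received no doxycycline. The old-OSKM group (4 mice) started at 55 weeks, received doxycycline for 7 days, recovered for 2 weeks and was 58 weeks old at collection. Each library came from a separate mouse. Induction differs between the cell types of the pancreas, so the old-OSKM libraries hold RNA of cells with and without a history of the factors. Acinar markers dominated every library. Ctrb1, a digestive protease precursor of acinar cells, had the highest mean of the list, at a log2 RPKM of 11.11. The 12 acinar markers summed to between 11942 and 12608 RPKM. The deposited values are quantile normalized, and the acinar markers Ctrb1, Cela2a and Amy2a5 each had the same value in all 13 libraries. The narrow range of the sum therefore does not measure how alike the mice were in acinar content. The master regulators of the acinar state were present as well, with a mean log2 RPKM of 2.71 for Ptf1a.

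Hox genes encode transcription factors that give cells along the head-to-tail axis their positional identity. Within a cluster their order on the chromosome matches the order of the body regions in which they are switched on, and genes of the same number in different clusters, called paralogs, have similar sequences. In adult organs the positional code persists mainly in fibroblasts, smooth muscle and other mesenchymal cells, while pancreatic epithelium is specified by the ParaHox gene Pdx1. Polycomb complexes hold silent Hox genes closed and the MLL complexes of the Trithorax group hold active ones open.

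All 38 members were low. Their mean log2 RPKM over the 13 mice ran from -4.62 for Hoxa11 to -1.63 for Hoxd8, and no mean lay above -1. By mean value Hoxd8 stood at the 44.5th percentile of all genes in the table and Hoxa5, the next member, at the 42.9th. The table holds log2 values without the read total of each library, so how many reads stand behind each value is unknown.

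Many low values in this table take discrete levels, and the levels decide what can be read from the Hox genes. A set of 3484 genes differed by less than 0.05 across the 13 mice once an offset of each library, which depends on the level of the gene, was taken away. That offset was largest in old-OSKM mouse 4, with a median of -0.17 over these genes, and in old-OSKM mouse 1, with a median of -0.09. In the other libraries it lay between -0.04 and 0.04. A lowest level of a gene is here a lowest value, after removal of the offset, that at least 2 mice share within 0.05. Of the 141 values of the members that lay more than 0.1 above the lowest level, 4 were less than 0.5 above it, 60 lay between 0.5 and 0.9 (median 0.70, quartiles 0.70 and 0.72), 24 between 0.95 and 1.3 (median 1.14, quartiles 1.13 and 1.16), and the other 53 between or above these windows. Over all genes with a lowest level below -1, the same medians were 0.71 and 1.13, and 15.2% of the values were less than 0.5 above the lowest level. The 141 values include Hoxc11 in old-OSKM mouse 4, at 0.14 above its lowest level. Hoxc11 is counted below as flat, under a wider limit of 0.2, and not among the members that left the lowest level. The table does not say how many reads a level stands for, and the lowest level differs from gene to gene, from -4.62 in Hoxa11 to -2.28 in Hoxd8. A value at the lowest level therefore shows no detectable RNA above that level, not a measured amount.

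The members split along the clusters. Of the 38 members, 16 were flat, staying within 0.2 of each other in all 13 mice after removal of the offset, and 4428 of all 23366 genes (19%) were as flat and low. These 16 were Hoxa9, Hoxa10, Hoxa11, Hoxa13, Hoxb1, Hoxb13, Hoxc8, Hoxc9, Hoxc10, Hoxc11, Hoxc12, Hoxc13, Hoxd1, Hoxd11, Hoxd12 and Hoxd13. Among the members of paralog groups 9 to 13, which pattern the trunk, limbs and tail end, 13 of 16 were flat. Among those of groups 1 to 8, which pattern the hindbrain, neck and chest levels, 3 of 22 were flat. Another 2 members left the lowest level in 1 mouse each, Hoxa6 in old mouse 2 and Hoxd10 in old-OSKM mouse 1. A further 15 members left it in several mice, and in the remaining 5 (Hoxa4, Hoxa5, Hoxb4, Hoxb5 and Hoxc4) no mice shared a lowest value. In HoxC the flat stretch was the longest, with 6 of 9 members flat, from Hoxc8 onward. In HoxB it was the shortest, with 2 of 10 flat, the genes at both ends.

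**Figure D1:**
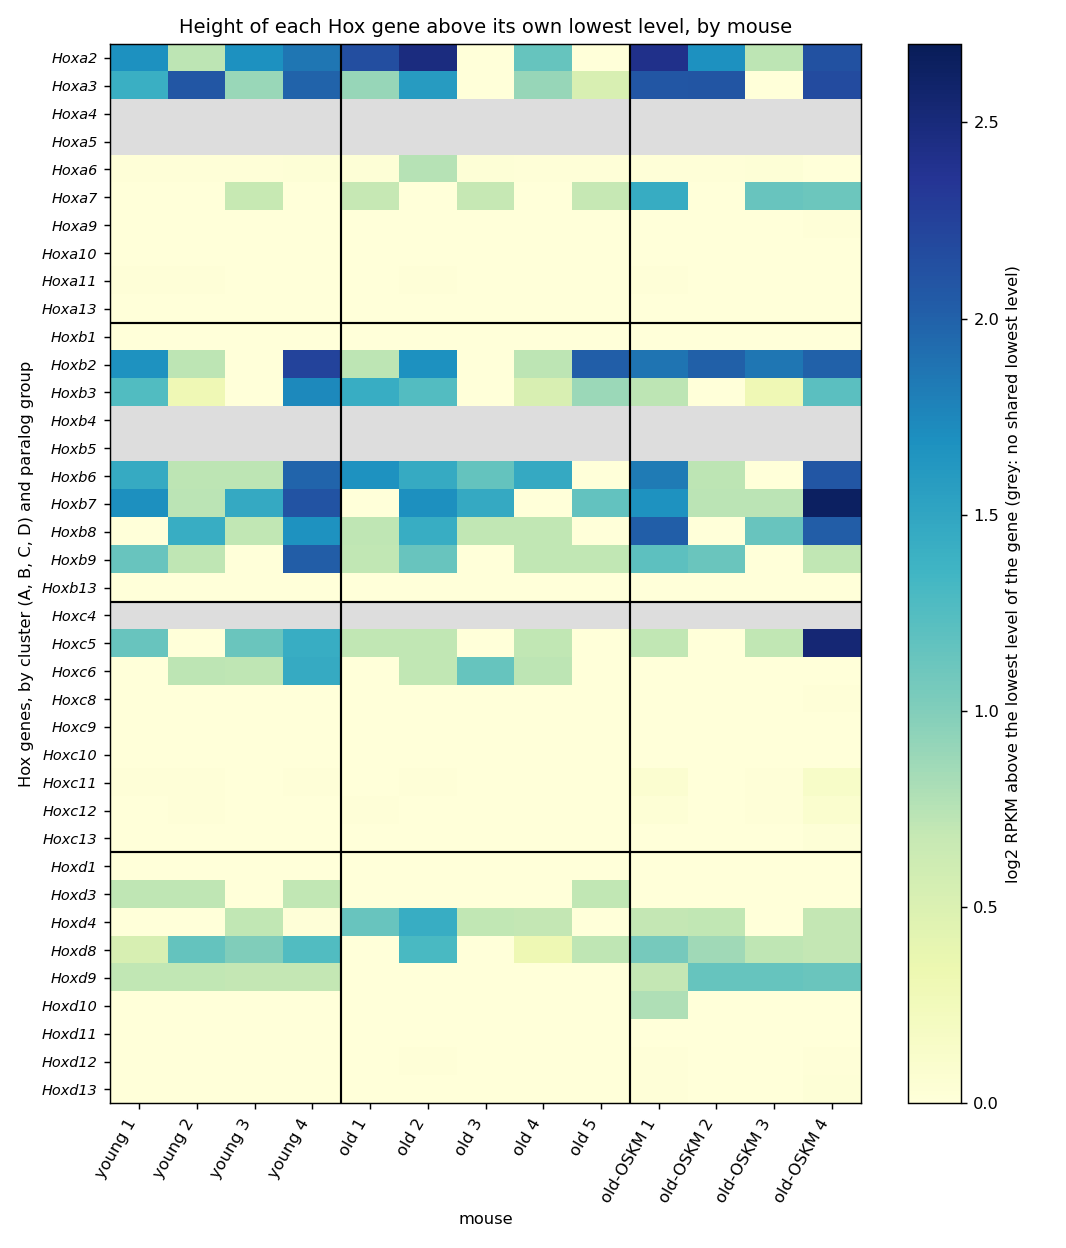
Height of each Hox gene above its own lowest level (log2 RPKM, colour) in each of the 13 mice (columns), with genes in cluster and paralog order. Grey marks the 5 genes without a shared lowest level, and Hoxd9 is at its lowest level in the 5 old mice and above it in the other mice.

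The flat members are the near-constant low values of the table. Without removal of the offset, 17 members in young mice and 18 in old mice had a group mean below -1 and a spread within the group of no more than 0.1, compared with 19% of all genes in young and 19.7% in old mice. In old-OSKM mice, the group whose library offsets differ most, no member met this, and 1.82% of all genes did. The 18 members are the 16 flat ones, Hoxd9 and Hoxd10. Hoxa13 and Hoxb13 had identical values in all 13 mice, and 10 members shared their 13 values with at least 1 other gene, as did 3589 genes in the whole table. Group differences of the 16 flat members ran from -0.07 to 0.0035 on the log2 scale, and the smallest raw p among them was 0.195 in limma. These values hold no information on differences between mice.

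The number of members above the lowest level overlapped between the 3 groups. Counting the 17 members that had a lowest level and left it at least once, 11, 12, 11 and 13 were above it in the young mice, 10, 13, 6, 11 and 8 in the old mice, and 14, 9, 9 and 13 in the old-OSKM mice. The mean count (± SD) was 11.8 ± 0.957 in the 4 young mice, 9.6 ± 2.7 in the 5 old mice and 11.3 ± 2.63 in the 4 old-OSKM mice. The summed RPKM of the 38 members (mean ± SD) was 5.40 ± 0.752 for young, 4.84 ± 0.5 for old and 5.32 ± 0.538 for old-OSKM mice. Old mouse 3 had the lowest sum, 4.15 RPKM, and young mouse 4 the highest, 6.45 RPKM.

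Hoxd9, a HoxD gene best known for its part in limb and lumbar patterning, lies at the edge between the detected and the flat stretch of its cluster. Hoxd8, beside it, was among the highest members in every group, and Hoxd10, on its other side, was at the lowest level in 12 of 13 mice. The promoters of these 3 neighbours are shown because the edge runs between them. They are 300 bases around a transcript start of each gene in RefSeq, which for Hoxd10 lies inside the annotated span of the gene (build GRCm38.p6, the assembly of mm10, plus strand), with matches to the searched motifs in capitals.
Hoxd8: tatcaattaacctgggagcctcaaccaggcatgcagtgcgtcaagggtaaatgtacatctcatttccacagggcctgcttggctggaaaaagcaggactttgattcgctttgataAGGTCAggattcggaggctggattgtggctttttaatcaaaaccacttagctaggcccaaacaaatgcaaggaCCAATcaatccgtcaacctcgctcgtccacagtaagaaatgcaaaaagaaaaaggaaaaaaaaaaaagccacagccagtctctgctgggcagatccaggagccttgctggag
Hoxd9: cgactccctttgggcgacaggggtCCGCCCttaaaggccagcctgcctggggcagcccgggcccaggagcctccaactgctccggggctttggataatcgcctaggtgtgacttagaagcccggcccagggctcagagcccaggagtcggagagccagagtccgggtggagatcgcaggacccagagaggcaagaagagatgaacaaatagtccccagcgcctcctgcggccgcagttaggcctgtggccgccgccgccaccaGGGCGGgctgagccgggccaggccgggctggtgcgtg
Hoxd10: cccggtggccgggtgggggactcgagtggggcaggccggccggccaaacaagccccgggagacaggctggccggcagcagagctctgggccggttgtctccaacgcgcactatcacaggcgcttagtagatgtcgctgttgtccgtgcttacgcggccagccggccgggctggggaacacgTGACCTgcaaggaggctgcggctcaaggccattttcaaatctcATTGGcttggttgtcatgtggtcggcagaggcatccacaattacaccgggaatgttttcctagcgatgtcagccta

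They lie at chr2:74704365-74704664 (Hoxd8), chr2:74697513-74697812 (Hoxd9) and chr2:74691641-74691940 (Hoxd10). The motifs searched on both strands were the TATA box (TATAAA), the CCAAT box, the joint PBX and Hox site (TGATTNAT), a site preferred by posterior Hox proteins (CATAAA), the half-site of retinoic acid receptors (AGGTCA) and the core of an Sp1 site (GGGCGG). Hoxd8 holds a CCAAT box and an AGGTCA site. Hoxd9 holds GGGCGG on both strands. Hoxd10 holds CCAAT and AGGTCA, both on the minus strand. None of the 3 holds one of the other motifs. The G and C content was 46.7% in Hoxd8, 68.3% in Hoxd9 and 62.7% in Hoxd10.

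RefSeq promoters were at hand for 22 members, 24 promoters in all, and were set against 32851 promoters of the mouse. CCAAT was found in 15 of the 24 (37.4% of all promoters), GGGCGG in 10 (35.7%), AGGTCA in 7 (16.3%), CATAAA in 5 (11.9%), TATAAA in 4 (13.6%) and TGATTNAT in 2 (3.22%). The median G and C content was 57.7% in the members and 52.7% in all promoters, and the median number of CpG pairs was 14.5 and 7. Between the 11 promoters of flat members and the 13 of the other members the G and C content was alike, with medians of 57.3% and 58%.

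In the 4 young mice Hoxd9 had log2 RPKM values of -3.12, -3.10, -3.16 and -3.17. In the 5 old mice it had -3.82, -3.87, -3.81, -3.83 and -3.83. In the 4 old-OSKM mice it had -3.24, -2.69, -2.64 and -2.97. Every old mouse lay below every young and every old-OSKM mouse, while the young and old-OSKM values overlapped. After removal of the offset the 5 old mice were at the lowest level (heights from 0 to 0.01), the 4 young mice at the first level above it (heights from 0.69 to 0.70), old-OSKM mouse 1 at that same level (0.69) and old-OSKM mice 2, 3 and 4 at the second level (1.14, 1.14 and 1.12). On the linear scale the group means (± SD) were 0.114 ± 0.00268 RPKM for the 4 young, 0.0702 ± 0.000986 RPKM for the 5 old and 0.137 ± 0.0253 RPKM for the 4 old-OSKM mice. Fewer cells that hold the transcript and less transcript per cell cannot be told apart in these bulk samples.

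Hoxd9 was the only member called in old minus young and in old-OSKM minus old, where a call means a change of more than 1.5-fold together with a raw p below 0.01, so that 1 of 38 members passed in each. Among all genes 0.886% passed in old minus young and 0.753% in old-OSKM minus old. The log2 difference was -0.69 between old and young mice (standard error 0.10, limma Benjamini-Hochberg adjusted p = 0.0318 over all genes) and 0.95 between old-OSKM and old mice (standard error 0.10, limma adjusted p = 0.0236). An adjusted p under 0.05 was reached by 0.0813% of all genes in the first comparison and 0.00428% in the second, where Hoxd9 was the 1 gene that reached it. The adjusted p of Hoxd9 was under 0.05 in 9 of 21 alternatives in the first comparison and 7 of 21 in the second, and over 0.05 in both when any 1 young or old mouse was left out. The old mice serve in each of these comparisons, and the opposite signs are therefore not independent. Since the old mice were at the lowest level, the fold between groups depends on where that level lies and is not a measured ratio of RNA amounts. The values of young and old mice are tied at discrete levels, so their spread is mostly that of the library offsets, and the standard errors and p-values do not measure variation between mice in the amount of RNA. When 1 RPKM was added to every value before the logarithm, the log2 differences became -0.06 and 0.09 and neither was called.

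**Figure D2:**
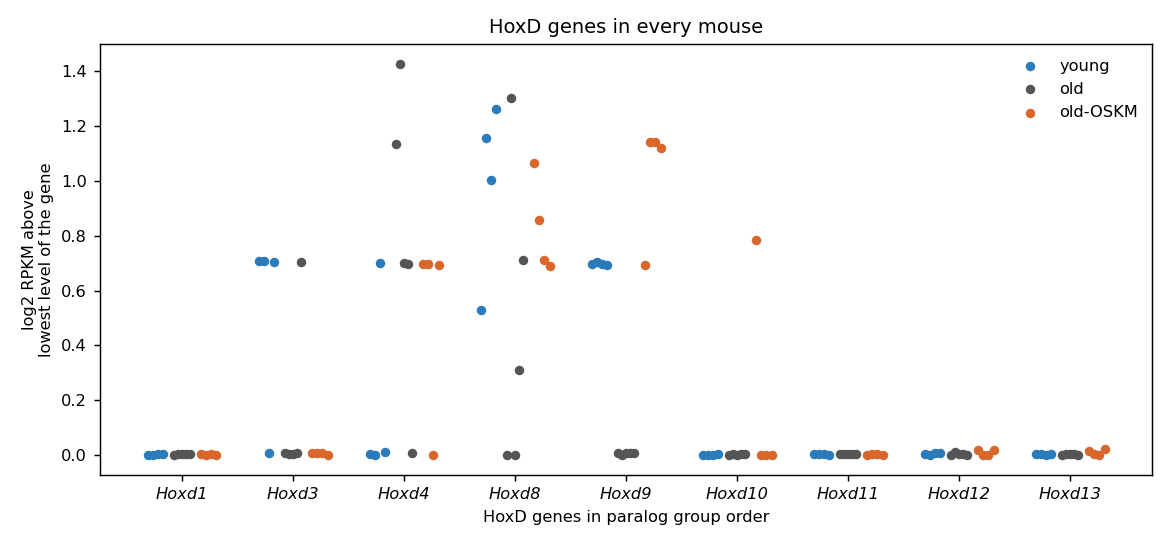
HoxD genes in paralog order (x axis) and their height above the lowest level of the gene (y axis, log2 RPKM), with 1 point for each mouse, coloured by group. Hoxd8 is spread over heights from 0 to 1.3, Hoxd9 stands at 3 levels with all old mice at the lowest, and Hoxd11 to Hoxd13 stay at 0.

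Among all 9574 genes with a lowest level below -1, the pattern of Hoxd9, with all old mice at the lowest level and all young and old-OSKM mice above it, occurred in 2 genes. The other was Popdc2, a membrane protein of heart and skeletal muscle, which was found by this search and chosen after its values were seen. All old mice at the lowest level with all young mice above it occurred in 3 genes, and the reverse in 3 genes. All old mice at the lowest level with all old-OSKM mice above it occurred in 7 genes, and the reverse in 0 genes.

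No other member of HoxD was called. Hoxd8 had log2 RPKM values of -1.73, -1.05, -1.32 and -1.19 in young mice, of -2.26, -1.12, -2.24, -1.92 and -1.57 in old mice, and of -1.65, -1.46, -1.49 and -2.16 in old-OSKM mice. Old mouse 2 was as high as the young mice, and the 3 groups overlapped. Its log2 difference was -0.50 in old minus young (standard error 0.25, limma adjusted p = 0.952) and 0.13 in old-OSKM minus old (standard error 0.25, adjusted p = 0.793). With old mouse 2 left out, Hoxd8 was called lower in old minus young, with -0.68. Hoxd3 was 1 level up in 3 of 4 young mice, 1 of 5 old mice and 0 of 4 old-OSKM mice, and Hoxd4 was above its lowest level in 1 of 4 young, 4 of 5 old and 3 of 4 old-OSKM mice. The spans of Hoxd3 and Hoxd4 overlap, and whether the counting used strand is not given in the sources used here, so reads of overlapping and antisense transcripts cannot be told apart. The same holds for 10 of the 38 members, which overlap another member.

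Hoxc6, a gene of the shoulder and forelimb level, was the member with the lowest old-OSKM values relative to the other groups. Its log2 RPKM was -3.52, -2.79, -2.86 and -2.23 in young mice, -3.53, -2.90, -2.37, -2.81 and -3.54 in old mice, and -3.64, -3.54, -3.52 and -3.71 in old-OSKM mice. All 4 old-OSKM mice were at the lowest level, together with young mouse 1 and old mice 1 and 5. The log2 difference in old-OSKM minus young was -0.75 (standard error 0.29, limma adjusted p = 0.706) and it was not called. With young mouse 1 left out it was called, with -0.97. Old-OSKM and young mice did not overlap in the deposited values, but after removal of the offset young mouse 1 and the old-OSKM mice shared the lowest level.

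The highest members besides Hoxd8 were Hoxa5, Hoxb5, Hoxb7, Hoxb3 and Hoxb4, genes of the neck, shoulder and chest levels. Hoxa5, known for its part in lung and gut mesenchyme, had log2 RPKM values of -1.83, -1.77, -1.74 and -1.45 in young mice, of -1.51, -2.39, -2.23, -1.64 and -2.03 in old mice, and of -1.27, -2.04, -3.01 and -0.69 in old-OSKM mice. The old-OSKM mice held both the highest and the lowest value of all 13 mice. Hoxb5 had -2.02, -1.78, -2.63 and -0.96 in young mice, -3.72, -1.85, -2.24, -1.27 and -1.85 in old mice, and -1.50, -2.05, -1.29 and -1.71 in old-OSKM mice. Old mouse 1 was the lowest and the groups overlapped.

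Hoxb7 had log2 RPKM values of -1.60, -2.54, -1.92 and -1.38 in young mice, of -3.30, -1.77, -1.81, -3.32 and -2.16 in old mice, and of -2.08, -2.59, -2.53 and -1.25 in old-OSKM mice. Old mice 1 and 4 were at the lowest level of the gene. Hoxb3 had -1.58, -2.51, -2.89 and -1.30 in young mice, -1.38, -1.76, -2.85, -2.31 and -1.99 in old mice, and -2.47, -2.87, -2.50 and -2.23 in old-OSKM mice. Hoxb4, a gene also known from blood stem cells, had -2.34, -2.55, -1.70 and -2.04 in young mice, -2.14, -2.15, -2.89, -1.96 and -2.17 in old mice, and -2.09, -3.33, -2.54 and -1.58 in old-OSKM mice. All groups overlapped in these 3 genes. Over these 5 genes and the 3 comparisons the log2 differences ran from -0.61 (Hoxb7, old minus young) to 0.55 (Hoxb5, old-OSKM minus old), with limma adjusted p-values from 0.608 to 1, and the direction of Hoxa5, Hoxb3, Hoxb4, Hoxb5 and Hoxb7 changed in at least 1 comparison with the choice of pseudocount, a covariate or the mice left out.

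**Figure D3:**
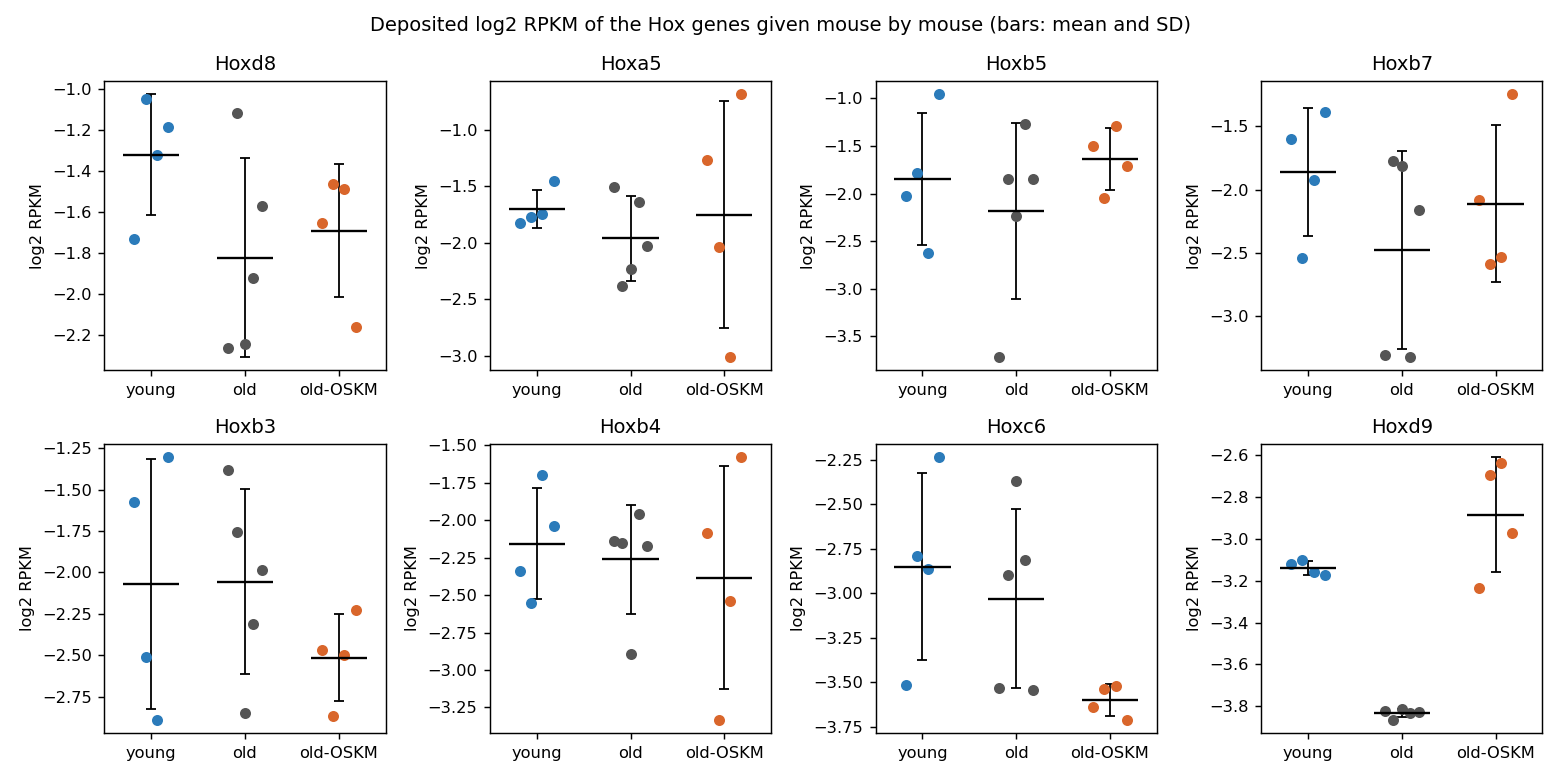
Deposited log2 RPKM (y axis) of the 6 highest members, Hoxc6 and Hoxd9 in young, old and old-OSKM mice, with 1 point for each mouse and bars for the mean and SD. The groups overlap in each panel of the 6 highest members, and in Hoxd9 the 5 old mice lie below the other 8.

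Between old-OSKM and young mice 0 of 38 members were called in limma, against 0.625% of all genes, 0 had an adjusted p under 0.05, against 0.0428%, and 4 had a raw p under 0.05 (Hoxa4, Hoxc6, Hoxd3 and Hoxd9, listed after their values were seen), against 5.07% of all genes. A raw p under 0.05 was found for 2 members in old minus young (Hoxd4 and Hoxd9), against 5.52% of all genes, and for Hoxd9 alone in old-OSKM minus old, against 8.07%. The groups did not overlap in 1 member in each comparison: Hoxd9 in old minus young (2.71% of all genes), Hoxd9 in old-OSKM minus old (1.73%) and Hoxc6 in old-OSKM minus young (1.9%). Each of these last counts is 1 of 38 members.

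The median log2 difference of the 38 members was -0.0036 in old minus young, -0.03 in old-OSKM minus old and -0.05 in old-OSKM minus young, and the medians over all genes were 0.0012, -0.04 and -0.04. These medians include 18 members that are near-constant in at least 1 group. Over the 20 members without a near-constant low group, the medians were -0.25, 0.27 and -0.09, and over the 18107 genes of the table without such a group they were 0.0098, -0.03 and -0.02. Of these 20 members, 15 had a difference below 0 in old minus young (45.4% of those genes) and 13 a difference above 0 in old-OSKM minus old (43.5%), in comparisons that share the old mice. Nothing particular to the Hox genes is claimed from these counts. The single differences ran from -0.81 in Hoxa3 to 0.61 in Hoxd4 for old minus young, from -0.57 in Hoxc6 to 0.95 in Hoxd9 for old-OSKM minus old, and from -0.75 in Hoxc6 to 0.70 in Hoxa4 for old-OSKM minus young. A difference of more than 1.5-fold was reached by 4, 3 and 3 members.

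**Figure D4:**
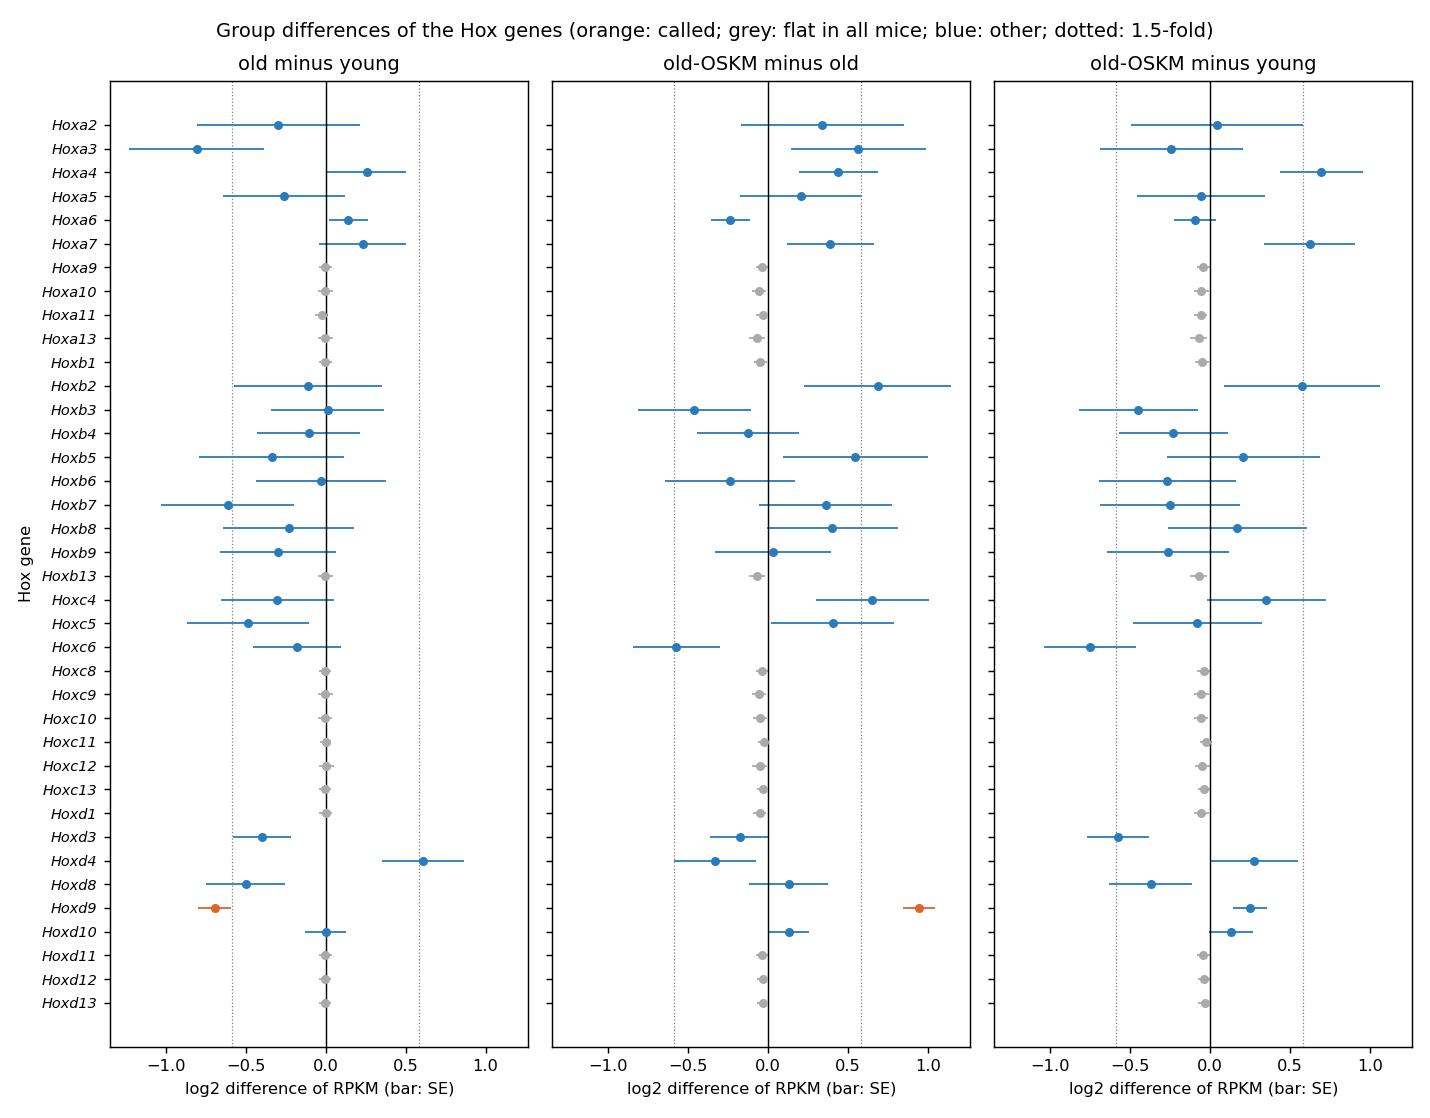
Log2 difference of RPKM (x axis, points) with its standard error (bars) for each of the 38 members (y axis) in the 3 comparisons. The 16 flat members, in grey, lie close to 0, and the called values of Hoxd9, in orange, lie at -0.69 and 0.95.

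No marker list was tested as a group, and the lists are given by counts. Of the 12 fibroblast and stellate markers, none of them flat, 2 were called lower in old minus young (Col1a1 and Col3a1; 0.886% of all genes called) and 3 higher in old-OSKM minus old (Col1a1, Col1a2 and Thy1; 0.753%). All 12 differences were below 0 in the former (median -0.44) and above 0 in the latter (median 0.66), against 45.5% of all genes below 0 and 36.9% above 0, and both comparisons share the old mice. The same signs were found for 7 of 7 endothelial markers (medians -0.30 and 0.34) and 6 of 6 adipocyte markers (medians -0.33 and 1.36). Lists with a single sign were common in old-OSKM minus old: all 6 macrophage (median 0.66), 8 B and plasma cell (0.51), 6 T cell (0.57), 5 mesothelium (0.88) and 5 proliferation markers (0.81) were above 0, and all 10 islet (-0.57) and 8 hepatocyte markers (-0.56) below 0. Single libraries stand apart in several of these lists. In old-OSKM mice 1 to 4 the summed RPKM was 5.79, 1.01, 1.27 and 1.79 for T cell, 4.07, 1.70, 0.955 and 0.898 for proliferation, 17.8, 16.4, 16.7 and 35.0 for endothelial and 79.4, 165, 117 and 508 for islet markers, the last value being the highest islet sum of all 13 mice. Col1a1, a chain of type I collagen, had log2 RPKM values of 1.98, 1.98, 1.37 and 2.64 in young mice, of 1.13, 0.96, 0.90, 1.06 and 1.27 in old mice, and of 2.39, 1.60, 1.42 and 2.37 in old-OSKM mice. The old mice lay below all others, with log2 differences of -0.93 (limma adjusted p = 0.469; called under 22 of 23 alternatives) and 0.88 (limma adjusted p = 0.547; 17 of 23). The call of Col3a1 was kept under 18 of 23 alternatives, that of Thy1 under 16 of 23 and that of Col1a2 under 11 of 23.

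The summed level of the 12 markers was 38.8, 40.3, 35.5 and 69.5 RPKM in young mice, 32.1, 33.7, 26.1, 34.4 and 31.2 RPKM in old mice, and 53.3, 38, 34 and 92.8 RPKM in old-OSKM mice. Their most abundant gene was Dcn, with a mean log2 RPKM of 3.78. Old-OSKM mouse 1, the lowest of its group in Hoxd9, was the second of its group in this sum, and young mouse 4 was the highest young mouse in this sum with a Hoxd9 value like the others. The part of these cells in the Hoxd9 values was not tested.

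**Figure D5:**
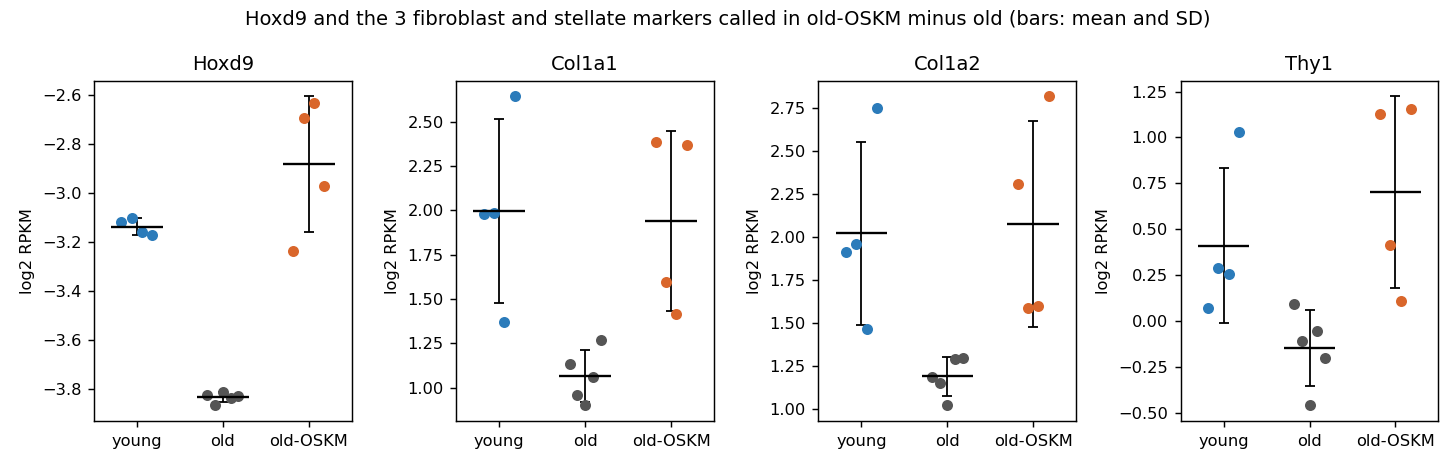
Log2 RPKM (y axis) of Hoxd9 and of Col1a1, Col1a2 and Thy1, the 3 fibroblast and stellate markers called in old-OSKM minus old, in each mouse, by group, with bars for the mean and SD. In Hoxd9 the groups are tight in young and old mice, and in the 3 markers the young and old-OSKM mice spread widely.

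Single genes were called in other marker lists. In B and plasma cell markers 1 of 8 was called higher in old minus young (Jchain, the joining chain of secreted antibodies, log2 difference 2.35, kept under 14 of 23 alternatives) and 3 of 8 in old-OSKM minus young (Jchain, Cd79b and Ms4a1, kept under 22 of 23, 15 of 22 and 11 of 22). Of 6 T cell markers, Cd3g was called higher in old-OSKM minus young, a call kept under 5 of 21 alternatives. Of the adipocyte markers, Plin1, a coat protein of fat droplets, was called higher in old-OSKM minus old (log2 difference 1.53, kept under 11 of 22 alternatives), with its highest value, -0.15, in old-OSKM mouse 1. Lgr5, listed as an intestinal stem cell marker, was called higher in old-OSKM minus old (1.03, kept under 19 of 22) and in old-OSKM minus young (0.94, kept under 15 of 22), at mean values below -3 in each group. In acinar, duct, islet, smooth muscle, mesothelium, endothelial, macrophage, spleen, hepatocyte, kidney and urogenital, and proliferation markers 0 genes were called in limma. This held in the 3 comparisons, although 1 to 4 genes of some of these lists had a raw p under 0.05. The acinar genes Ctrb1, Cela2a and Amy2a5 had the same value in every quantile normalized library, so they could not be called. Pnlip, another acinar gene, was lower in every old and old-OSKM mouse than in the young mice, which shared 1 value. Its log2 difference was -0.26 in old minus young (limma adjusted p = 0.0923) and -0.21 in old-OSKM minus young (limma adjusted p = 0.487). Both are smaller than 1.5-fold.

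The genes with which Hox proteins work were not called. Among the 9 TALE cofactors, which bind DNA together with Hox proteins, Meis2 had the highest mean log2 RPKM, 2.44. In old-OSKM minus old the smallest raw p of the list was that of Pbx4, with a log2 difference of -0.36 (limma adjusted p = 0.547).

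Of the 6 ParaHox genes, Pdx1 had a log2 RPKM of 0.87 in young, 0.80 in old and 0.75 in old-OSKM mice. Its difference in old minus young was -0.07 (limma adjusted p = 1), the smallest raw p of the list there. Cdx2, Cdx4, Gsx1 and Gsx2 were flat. Cdx4 had the smallest raw p in the other comparisons, with -0.06 in each (limma adjusted p = 0.608 in old-OSKM minus old and limma adjusted p = 0.706 in old-OSKM minus young).

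Of the 10 transcripts inside the clusters that do not code for protein, 7 were flat, among them Hotair, which is transcribed from HoxC, and the precursors Mir10a, Mir196a-1, Mir196a-2, Mir196b and Mir615. Another 8 listed noncoding RNAs were not analysed here. In old-OSKM minus old, 5 of the 10 had a raw p under 0.05 in limma (8.07% of all genes) and 0 were called. All 5 (Mir10a, Mir196a-1, Mir196a-2, Mir196b and Mir615) are flat after removal of the offset, and Mir196a-2 and Mir196b have identical values, so they are not separate results. The smallest raw p was that of Mir10a, a log2 difference of -0.26 (limma adjusted p = 0.547). The cause of the difference before removal of the offset was not tested. Hoxaas3, antisense to Hoxa5 and Hoxa6, had the smallest raw p in old minus young, with -0.12 (limma adjusted p = 1), and Mir196a-2 in old-OSKM minus young, with -0.18 (limma adjusted p = 0.706).

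At the borders of the clusters the level changed from gene to gene. Evx1 and Evx2, homeobox genes next to the last genes of HoxA and HoxD, were flat like those genes. The neighbours farther out were above them, with mean log2 RPKM values of 2.76 for Hibadh and 0.88 for Skap2 beside HoxA, and of 1.81 for Mtx2 and 0.14 for Lnpk beside HoxD. None of the 11 neighbours was called. Smug1, beside HoxC, had the smallest raw p in old-OSKM minus old, with -0.24 (limma adjusted p = 0.547), and in old-OSKM minus young, with -0.33 (limma adjusted p = 0.706), and Skap1, beside HoxB, in old minus young, with 0.37 (limma adjusted p = 1).

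Few of the chromatin regulators of the clusters were called. Among the 11 PRC2 genes, Phf19, which brings PRC2 to its targets, was called lower in old minus young, from a log2 RPKM of -2.61 to -3.31, a log2 difference of -0.70 (limma adjusted p = 0.61), but the call was kept under 8 of 22 alternatives and in 3 of 13 fits with 1 mouse left out. The lowest values of Phf19, -3.70 and -3.71 in old mice 1 and 5, lie in the range of the lowest levels of the Hox genes. Its fold may therefore depend on where such a level lies. The difference of Phf19 in old-OSKM minus old was 0.53 (limma adjusted p = 0.547). In old-OSKM minus young the smallest raw p of the list was that of Eed, with 0.13. Among the 17 PRC1 genes, 9 Trithorax and MLL genes and 6 CTCF and cohesin genes 0 were called in limma.

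In PRC1 the smallest raw p belonged to Bmi1 in old minus young, with 0.24 (limma adjusted p = 0.475), to Pcgf6 in old-OSKM minus old, with -0.40 (limma adjusted p = 0.547), and to Bmi1 in old-OSKM minus young, with 0.16. All 3 differences are smaller than 1.5-fold. Among the Trithorax and MLL genes it belonged to Wdr5 (-0.11 in old minus young), Dpy30 (-0.26 in old-OSKM minus old) and Kdm6a (0.21 in old-OSKM minus young). Among CTCF and cohesin it belonged to Ctcf (0.07 in old minus young) and to Smc1a (0.15 in old-OSKM minus old and 0.14 in old-OSKM minus young).

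In the retinoic acid pathway, which switches on Hox genes in the embryo, Rxrg, a nuclear receptor partner of the retinoic acid receptors, was called lower in old minus young, with -0.66 (limma adjusted p = 0.6), and in old-OSKM minus young, with -0.69 (limma adjusted p = 0.706). These calls were kept under 10 of 22 and 7 of 22 alternatives, and in 3 and 2 of 13 fits with 1 mouse left out. Rxrg had log2 RPKM values between -3.44 and -3.39 in old mice 2 to 5, and of -3.51, -3.38 and -3.59 in old-OSKM mice 1, 3 and 4. These values lie in the range of the lowest levels of the Hox genes, so both folds may depend on where such a level lies.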

How the data were processed

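RNA sequencing of pancreas was analysed in 13 mice (4 young, 5 old, 4 old-OSKM), mapped to groups by the sample labels. The authors aligned reads to mm10 with STAR 2.3.0e, estimated RPKM per isoform with Casper, summed per Entrez gene, took log2 and quantile normalized. Their methods add a correction by the reads of each sample, which was not visible in the values; these deposited log2 values were used without a filter. Of 23366 genes, 23273 matched a symbol in the GRCm38.p6 RefSeq table. No pair of libraries held identical values. The methods give a common read number for all samples, and the read total of each library is not in the table.

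All 3 groups were fitted together with limma 3.58.1 in R 4.3.3 (lmFit, eBayes, two-sided), called at a fold over 1.5 and a raw p under 0.01, with Benjamini-Hochberg adjustment over all genes. The fit and the removal of library offsets were tested on simulated data. Members and lists were chosen with earlier results of these data known; the levels and offsets were defined after seeing the data. Values in every mouse are given for members called, with an adjusted p under 0.05, with a raw p under 0.05 and groups apart, or among the 6 highest; from the pathway lists, genes are named among those called or with the smallest raw p. Of the 106 genes in those lists, 9 symbols were not matched. Alternatives were other normalizations, pseudocounts of 1 and 0.1, filters, the groups of a comparison alone, eBayes with trend and robust options, a covariate for runs of consecutive identifiers, other call rules and each mouse left out. Figures were drawn with matplotlib 3.10.9 in Python 3.11.15.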

Additional observations from a re-analysis of the deposited data

Results flagged for a closer look

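Among the 8 Hox genes given mouse by mouse, 24 groups of 4 or 5 mice were searched for a mouse far from the others of its group, and 1 was found. Hoxb4 in old mouse 3 had a log2 RPKM of -2.89, while the other 4 old mice lay between -2.17 and -1.96. Chance alone gives about 1 such mouse in 20 groups.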

How the results depend on the processing

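Hoxd9 was called under 19 of 21 alternatives in old minus young and under 19 of 21 in old-OSKM minus old, with an adjusted p under 0.05 in 9 and 7 of the 21, and it kept its direction in all of them. The calls were lost with a pseudocount of 1 and of 0.1 (0 members called each), where the log2 differences were -0.06 and 0.09, and -0.33 and 0.47. Without genes near-constant and low in any group, Hoxd9 was not tested and 0 of 20 members were called. The adjusted p of Hoxd9 in limma ranged from 1.42e-05 to 0.193 in old minus young and from 9.76e-07 to 0.437 in old-OSKM minus old; in both it was over 0.05 when any 1 young or old mouse was left out. With a raw p under 0.05 as the rule, 2 members were called in old minus young and 4 in old-OSKM minus young. With 1 mouse left out, 1 to 2 (with Hoxd8 without old mouse 2 and Hoxd4 without old mouse 5), 1 and 0 to 1 (Hoxc6 without young mouse 1, Hoxd3 without young mouse 3, Hoxa4 without young mouse 4, Hoxa7 without old-OSKM mouse 2, named after their values were seen) members were called in the 3 comparisons, and groups did not overlap in 1 to 2, 1 to 3 and 1 to 2 members. With old-OSKM mice 1 and 4 both left out, an alternative chosen after seeing the data, 3 members did not overlap in old-OSKM minus young; with the library offsets removed, also chosen afterwards, 0 did. The median of the members became -0.25 in old minus young and 0.27 in old-OSKM minus old without near-constant genes, 0.015 and 0.0089 in old-OSKM minus old with both mice out and with offsets removed, and -0.00256, 0.012 and 0.0022 in old-OSKM minus young with a pseudocount of 1, both mice out and offsets removed. Directions reversed for Hoxb3 in old minus young (-0.0071 and -0.0034 with pseudocounts of 1 and 0.1; -0.26 to 0.27 with 1 mouse out), Hoxb4 (0.0062 with the covariate; -0.24 to 0.052), Hoxb5 (-0.60 to 0.045) and Hoxc6 (-0.40 to 0.027). In old-OSKM minus old they reversed for Hoxa5 (-0.57 with both mice out; -0.15 to 0.63), Hoxb7 (-0.085 with both out), Hoxb4 (-0.39 to 0.19) and Cdx4 (0.014 with both out). In old-OSKM minus young they reversed for Hoxa5 (0.031 and 0.0082 with the pseudocounts; -0.41 to 0.36), Hoxb4 (-0.50 to 0.088), Hoxb5 (-0.051 to 0.51), Cdx4 (0.013) and Mir196a-2 (0.013), the last 2 with both mice out. The cause was not tested. Every call named from the pathway and marker lists was lost under at least 1 alternative. No member has a mean above -1, so a filter there gave no value, and without the read total of each library the precision of low values is unknown.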

Other observations

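The 8 hepatocyte markers summed to 71.3 RPKM in young mouse 3 and to between 1.19 and 6.01 RPKM in the other 12 mice. The 6 macrophage markers summed to 20.6 RPKM in old-OSKM mouse 1 and 16.4 RPKM in old-OSKM mouse 4, against 6.26 to 12.1 RPKM in the other mice. The 6 adipocyte markers summed to 12.5 and 13.9 RPKM in these 2 mice, against 3.07 to 8.59 RPKM in the others. Their part in the Hox values was not tested.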
